A study of Mus musculus with 12 samples.

Results

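The protein arginine methyltransferase (PRMT) family and the partners of PRMT5 were followed through RNA sequencing of 3T3-L1 cells. The genes were taken by name: 8 methyltransferases (Prmt1, Prmt2, Prmt3, Carm1, Prmt6, Prmt5, Prmt9 and Prmt7) and 2 methylosome partners (Wdr77 and Clns1a), which makes 10 of the 39423 genes in the table. 3T3-L1 is an established mouse preadipocyte line, and all libraries came from cells under the adipogenic mixture of dexamethasone, isobutylmethylxanthine and insulin (DMI, written MDI in the labels). The cells carried a nontargeting siRNA (siCtrl, NC in the labels) or siRNA against PRMT1 (siPRMT1) and were taken after 24 h (day 1) or 72 h (day 3), with 3 libraries in each of the 4 conditions. Cells before DMI were not analysed here, the siRNA was transfected transiently, and the labels do not say whether replicates were separate cultures, so the p-values measure the spread between these libraries, which may be technical.

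Arginine methyltransferases move methyl groups from S-adenosylmethionine (SAM) onto arginines of histones, RNA-binding proteins and many other proteins. Type I enzymes leave asymmetric dimethylarginine and type II enzymes leave symmetric dimethylarginine, while the type III enzyme PRMT7 stops at monomethylarginine. PRMT5 works in a complex with WDR77 (also called MEP50), and the adaptor pICln, which Clns1a encodes, brings it the Sm proteins of the spliceosome. In fat cells, CARM1 and PRMT5 are known as coactivators in transcription driven by PPARγ.

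The study lists 3 siRNAs against PRMT1, and which of them went into the sequenced cells is not given in the sources used here. Their antisense strands are shown because they define what was lowered. They are written 5′ to 3′, with bases 2 to 8, the seed, in capitals.
siPRMT1-1: aAGAGAUGccgauugugaaacaugg
siPRMT1-2: uUGGCAUUgggccucauuccaaugg
siPRMT1-3: uUAUAUUGucgguccucaauggcug
Each matched coding sequence of Prmt1 without a mismatch over its 25 bases. On GRCm38, the sites lay on the minus strand at chr7:44981826-44981850 (siPRMT1-1), chr7:44977511-44977535 (siPRMT1-2) and chr7:44978900-44978924 (siPRMT1-3), in exons 4, 10 and 7 of the 11 exons of the GENCODE transcript Prmt1-202. Of the 10 coding Prmt1 transcripts, 7, 7 and 6 held the respective site. In the transcripts of the 9 other members, the closest stretch of the same length had between 9 and 12 mismatches, and the longest run of matching bases was 9. None of the 3 siRNAs had a full-length match in the transcripts of another member. The letters that pair with each seed were searched in coding transcripts, on the transcript strand. CATCTCT, for siPRMT1-1, stood in transcripts of Carm1, Prmt6 and Prmt7, and in those of 34.2% of all 21877 genes searched. AATGCCA, for siPRMT1-2, stood in transcripts of Prmt7 and Clns1a, and in those of 26.3% of all genes. CAATATA, for siPRMT1-3, stood in transcripts of Clns1a, and in those of 11.1% of all genes. These matches are a description of the sequences only.

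Gene counts summed to between 15116462 and 42357137 per library. Each member had at least 524 counts in every library. The labelled cell type was reflected in the markers, with all 7 fibroblast markers above 1 FPKM in every condition. The 7 adipocyte markers summed to 145 to 150 FPKM with siCtrl and 110 to 123 FPKM with siPRMT1 at day 1. At day 3 they summed to 2180 to 2350 FPKM and 1700 to 1940 FPKM. Of those tested, 3 of 6 were called lower at day 1 and 2 of 7 at day 3, and 0 higher. Of all genes, 1.61% and 3.8% were called lower. The part of this difference in the members' values was not tested. Ptprc, which marks blood cells, was listed at 0 in all conditions. It is among the 4 macrophage markers, of which 1 reached 1 FPKM in each condition. FPKM are counts scaled by gene length and by the total of the library, so they can be set side by side between genes. siCtrl replicate 3 at day 1 stood apart. Its median absolute log2 difference from the other 2 libraries of its condition was 0.218, against 0.0527 to 0.141 in the other 11 libraries. After TMM normalization all 10 members were higher in it than in replicates 1 and 2. The share of all genes for which this held was not computed. In FPKM, Prmt9 was lowest in it, at 15.8 against 15.82 and 15.97. A set of 10 interferon-induced genes also moved with the siRNA, from a summed 48.8 to 54.9 FPKM under siCtrl to 103 to 146 FPKM with siPRMT1 at day 1, with 7 of 9 tested genes called higher. At day 3 the sums were 60.9 to 64.9 and 68.5 to 76.0 FPKM, with 4 of 9 called higher. The part of this shift in the members' values was not tested.

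All 10 members were detected in all 12 libraries. Prmt1, the main asymmetric methyltransferase of most cells, had the highest level in siCtrl cells at both days, with 85.8 FPKM at day 1 and 124 FPKM at day 3 as means of 3 libraries. Prmt5 followed with 41.8 and 79.0 FPKM and Carm1 with 32.0 and 41.8 FPKM, and none of these 3 genes overlapped the next in siCtrl libraries except Carm1 with Wdr77 at day 3. Prmt6, a nuclear enzyme acting on histone H3, was lowest in every condition, between 6.96 and 9.21 FPKM. In siCtrl cells at day 1, the libraries of Prmt7 overlapped those of Clns1a, and Clns1a overlapped Wdr77, while every Prmt7 library was above every Wdr77 library. Prmt3 and Prmt9 overlapped as well. In siPRMT1 cells, Prmt5 stood above Prmt1 at day 1, at 45.8 against 41.3 FPKM. The libraries did not overlap, but narrowly, with the lowest Prmt5 value at 44.08 and the highest Prmt1 value at 43.84 FPKM. The pair overlapped at day 3, at 67.2 and 67.4 FPKM. Prmt8, the family member known from brain, was listed at 0 counts in all 12 libraries, which allows up to 0.0708 to 0.198 CPM (counts scaled to the library total alone), counting error only.

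**Figure D1:**
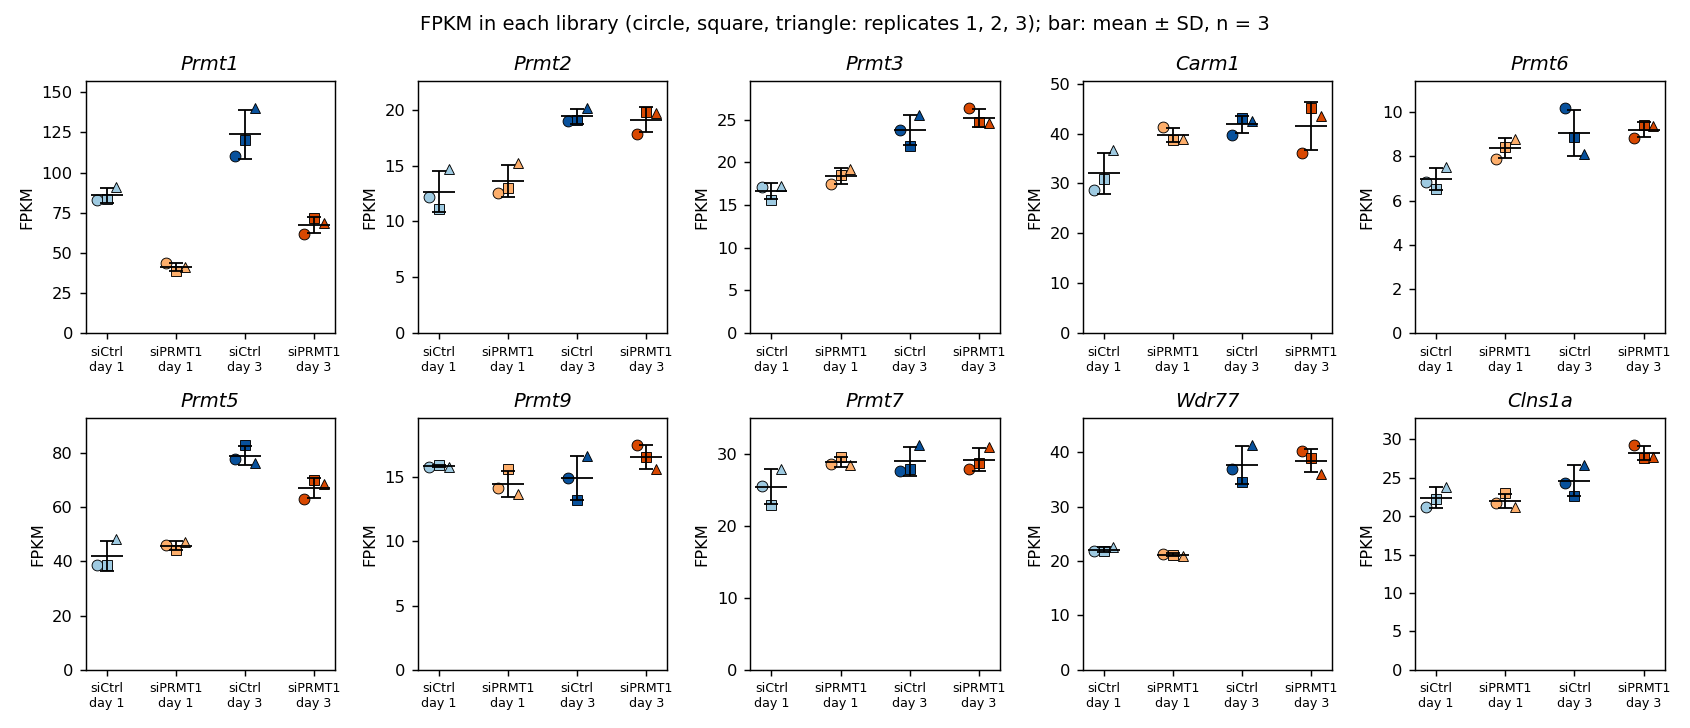
FPKM of the 10 genes in each library (vertical axes, starting at 0) by condition, with symbols for replicates 1, 2 and 3 and a bar for the mean ± SD of 3 libraries. Prmt1 is lower in all siPRMT1 than in all siCtrl libraries of its day, and Prmt5 and Wdr77 are higher in all day 3 than in all day 1 libraries.

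Prmt1 lies on chromosome 7 from 44976755 to 44986420 (GRCm38, minus strand), and no exon of another gene in the annotation overlaps it. In siCtrl cells at day 1, replicates 1, 2 and 3 had 82.9, 83.4 and 91.3 FPKM. The siPRMT1 libraries of that day had 43.8, 38.6 and 41.4 FPKM. At day 3, the 3 siCtrl values were 111, 120 and 140 FPKM and the 3 siPRMT1 values were 62.0, 71.7 and 68.5 FPKM. At both days the highest siPRMT1 value was below the lowest siCtrl value. Prmt1 was the only member called in either knockdown comparison, where a call needs an adjusted p under 0.05 and a log2 fold change over 0.5 in size. It fell by 53.5% at day 1 (log2 fold change -1.11, 95% interval -1.28 to -0.93, edgeR's quasi-likelihood test, adjusted p = 9.8e-04) and by 45.8% at day 3 (log2 fold change -0.88, interval -1.07 to -0.70, adjusted p = 1.2e-05). Among all genes tested, 1.61% were called lower and 1.95% higher at day 1, and 3.8% lower and 2.84% higher at day 3. In order of p, Prmt1 ranked 4 of 13689 genes at day 1 and 52 of 14039 at day 3. It was called in each of the 6 fits that left out 1 library, at either day. The size of the knockdown did not pass the test between days (interaction 0.24, interval -0.03 to 0.52, adjusted p = 0.243).

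**Figure D2:**
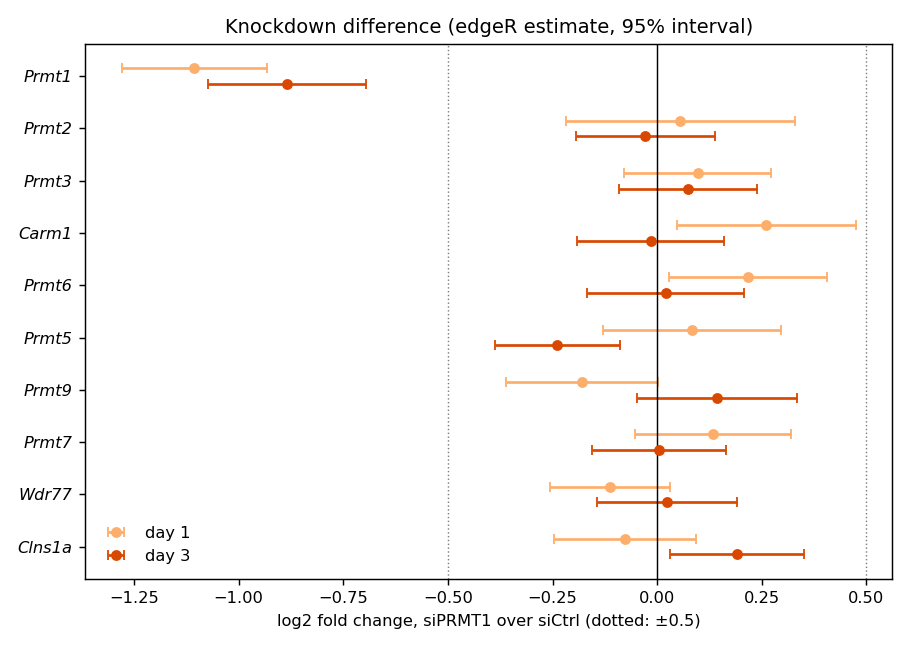
Log2 fold change of siPRMT1 over siCtrl for the 10 genes at day 1 and day 3, with 95% intervals from edgeR (3 libraries against 3). Prmt1 lies beyond -0.5 at both days, and the intervals of the other 9 genes lie within 0.5 of 0.

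The other 4 type I enzymes were not called at either day. Carm1, a coactivator that methylates histone H3, had 28.6, 30.9 and 36.6 FPKM with siCtrl and 41.4, 38.7 and 39.0 FPKM with siPRMT1 at day 1. Its FPKM groups did not overlap, but they did as CPM, counts scaled to the library total, after TMM normalization. The log2 fold change was 0.26 (interval 0.05 to 0.47, adjusted p = 0.129 from edgeR). At day 3, Carm1 had 39.8, 43.1 and 42.6 FPKM with siCtrl and 36.1, 45.1 and 43.5 FPKM with siPRMT1. These groups overlapped (log2 fold change -0.01, interval -0.19 to 0.16). Exons of Carm1 share 786 bases, 24.4% of its exon length, with Yipf2 on the other strand, and the strand setting of the counting is not given; Yipf2 had between 196 and 509 counts per library.

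Prmt6 had 6.84, 6.53 and 7.51 FPKM with siCtrl and 7.90, 8.41 and 8.80 FPKM with siPRMT1 at day 1. All 3 siPRMT1 values were above the siCtrl values in FPKM, and the log2 fold change was 0.22 (interval 0.03 to 0.41, adjusted p = 0.150 from edgeR). At day 3 it was 0.02 (interval -0.17 to 0.21). For Prmt3, which methylates the ribosomal protein RPS2, the log2 fold changes were 0.10 (interval -0.08 to 0.27) and 0.07 (interval -0.09 to 0.24). Prmt2, a coactivator of nuclear receptors, had 0.06 (interval -0.22 to 0.33) and -0.03 (interval -0.19 to 0.14). The intervals of Prmt2 and Prmt3 included 0 at both days.

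Day 1 values of several enzymes depended on siCtrl replicate 3. Without that library, Carm1 (log2 fold change 0.36, adjusted p = 9.9e-04 from edgeR), Prmt6 (0.26, adjusted p = 0.0171), Prmt5 (0.19, adjusted p = 0.0214) and Prmt7 (0.19, adjusted p = 0.0382) passed the adjusted p, all at a fold change under the threshold. In that fit 14.7% of all genes passed as higher at any fold change. With libraries weighted by their quality (limma voom), these 4 genes passed as higher, as did 17.1% of all genes, and Prmt9 as lower (-0.20, adjusted p = 0.0232), as did 16.3%. In the fit of all 6 libraries, Prmt1 alone passed, against 7.6% of all genes at any fold change. In FPKM, the groups did not overlap for Prmt3, Carm1, Prmt6 and Prmt7 in the higher direction, where 19.8% of all genes did so, and for Prmt1, Prmt9 and Wdr77 in the lower direction, where 11.9% did. In CPM after TMM normalization, the groups of Prmt3, Carm1, Prmt6 and Prmt7 overlapped, and those of Prmt1, Prmt9 and Wdr77 did not.

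**Figure D3:**
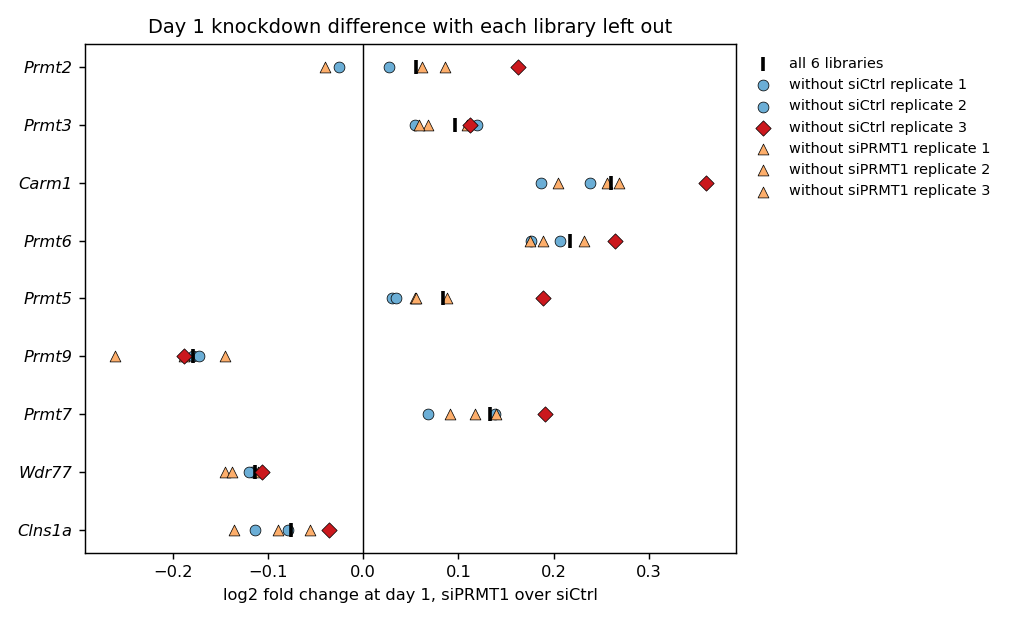
Day 1 log2 fold change (siPRMT1 over siCtrl) of the 9 members other than Prmt1 with all 6 libraries (bar) and without each library in turn (symbols). Leaving out siCtrl replicate 3 (diamond) gives the highest value for Prmt2, Carm1, Prmt6, Prmt5, Prmt7, Wdr77 and Clns1a.

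Prmt5, the main symmetric methyltransferase, lies on chromosome 14 from 54507182 to 54517470. At day 3, it had 77.7, 83.1 and 76.3 FPKM with siCtrl and 63.1, 70.2 and 68.4 FPKM with siPRMT1. The groups did not overlap, as for Prmt1 and 17.5% of all genes in that direction. The fall of 15.3% passed the adjusted p at a fold change under the threshold (log2 fold change -0.24, interval -0.39 to -0.09, adjusted p = 0.0295 from edgeR). Of all genes, 8.94% passed the adjusted p as lower at any fold change, those beyond the threshold included. It no longer passed without siCtrl replicate 2 (adjusted p = 0.147), siPRMT1 replicate 1 (0.0741) or siPRMT1 replicate 2 (0.0720), nor with all 12 libraries in 1 model (0.0779) or with limma on log2(FPKM + 1) (0.0534) or log2(FPKM + 0.1) (0.0548). At day 1, Prmt5 had 38.5, 38.7 and 48.2 FPKM with siCtrl and 46.1, 44.1 and 47.3 FPKM with siPRMT1, and the groups overlapped (log2 fold change 0.08, interval -0.13 to 0.30).

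Wdr77 and Clns1a, the partners of PRMT5, were not called in either knockdown comparison. Wdr77 had 21.9, 21.9 and 22.6 FPKM with siCtrl and 21.4, 21.2 and 20.9 FPKM with siPRMT1 at day 1, a log2 fold change of -0.11 (interval -0.26 to 0.03). At day 3 it had 36.9, 34.5 and 41.4 FPKM against 40.2, 39.0 and 36.1 FPKM, and the groups overlapped (0.02, interval -0.14 to 0.19). Clns1a had 24.4, 22.7 and 26.7 FPKM with siCtrl and 29.3, 27.6 and 27.8 FPKM with siPRMT1 at day 3. The groups did not overlap, as for 16.7% of all genes in that direction, and its log2 fold change of 0.19 had an interval of 0.03 to 0.35, with an adjusted p of 0.0941 from edgeR. Without siCtrl replicate 3 at day 3 its adjusted p was 0.0494, in a fit where 6% of all genes passed as higher at any fold change. The ratio of Clns1a to Prmt5 in FPKM was 0.312 ± 0.0385 with siCtrl and 0.421 ± 0.0379 with siPRMT1 at day 3, and 0.539 ± 0.0407 and 0.481 ± 0.0384 at day 1 (SD, n = 3). The ratio of Wdr77 to Prmt5 ran from 0.462 to 0.573 over the 4 condition means. Exons of Wdr77 share 205 bases with Atp5f1, a gene of 3706 to 9390 counts per library on the other strand.

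The other type II enzyme, Prmt9, which acts on a splicing factor, and the type III enzyme Prmt7 were not called. Prmt9 ran from 13.7 to 15.6 FPKM with siPRMT1 and from 15.8 to 16.0 FPKM with siCtrl at day 1 (log2 fold change -0.18, interval -0.36 to 0.00). At day 3 it ran from 15.7 to 17.5 FPKM with siPRMT1 and from 13.3 to 16.7 FPKM with siCtrl (log2 fold change 0.14, interval -0.05 to 0.33). Prmt7 stayed between 23.0 and 31.3 FPKM in all 12 libraries, with log2 fold changes of 0.13 (interval -0.05 to 0.32) and 0.00 (interval -0.16 to 0.16).

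With Prmt1 lowered, its share of the summed FPKM of the 8 methyltransferases was lower in all siPRMT1 than in all siCtrl libraries of each day, as described by these values without a test. Prmt1 made up 36.2 ± 0.934% of that sum with siCtrl and 19.6 ± 1.01% with siPRMT1 at day 1, and 36.2 ± 2.39% and 24.4 ± 0.577% at day 3 (SD, n = 3). The other 7 summed to 145, 142 and 168 FPKM with siCtrl and 168, 168 and 172 FPKM with siPRMT1 at day 1. Here siCtrl replicate 3 alone reached the siPRMT1 level. These sums carry no TMM scaling. The TMM factors at day 1 were 0.948 to 0.964 with siCtrl and 1.01 to 1.02 with siPRMT1. FPKM therefore put siPRMT1 higher against siCtrl than CPM after TMM do. At day 3 the same sum was 213, 217 and 221 FPKM with siCtrl and 198, 215 and 212 FPKM with siPRMT1, which overlapped. These are transcript levels in bulk cells, where fewer cells of a type and less RNA per cell cannot be told apart.

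**Figure D4:**
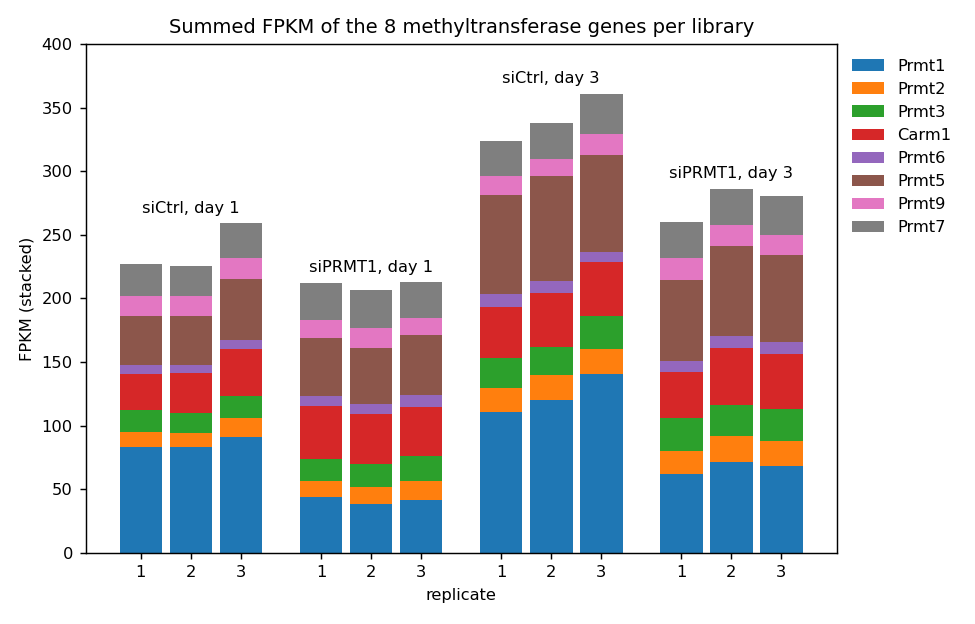
Stacked FPKM of the 8 methyltransferase genes in each of the 12 libraries (vertical axis, FPKM, starting at 0), grouped by condition with replicates 1 to 3. The lowest block, Prmt1, is smaller in siPRMT1 than in siCtrl libraries, and Prmt5 takes a larger block at day 3 than at day 1.

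Between day 1 and day 3, 3 members were called higher and 0 lower in siCtrl cells, where 22.7% of all genes were called higher and 20.4% lower. Prmt5 rose from 41.8 ± 5.53 to 79.0 ± 3.57 FPKM (SD, n = 3), a log2 fold change of 0.85 (interval 0.61 to 1.08, adjusted p = 7.5e-05 from edgeR). Wdr77 rose from 22.1 ± 0.403 to 37.6 ± 3.49 FPKM (log2 fold change 0.70, interval 0.50 to 0.90, adjusted p = 9.6e-05). Prmt2 rose from 12.7 ± 1.86 to 19.4 ± 0.654 FPKM (0.55, interval 0.28 to 0.81, adjusted p = 0.0029). In FPKM, every day 3 library was above every day 1 library in these 3 genes and also in Prmt1, Prmt3, Carm1 and Prmt6. The same held for 36.9% of all genes. Prmt2 was called in 3 of the 6 fits that left out 1 library. Prmt1 (0.46), Prmt3 (0.45), Carm1 (0.32) and Prmt6 (0.31) also passed the adjusted p as higher, under the fold threshold, which brings the members past it to 7 of 10, against 30.2% of all genes in that direction. Prmt9 (-0.16), Prmt7 (0.12) and Clns1a (0.07) did not pass.

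In siPRMT1 cells, the genes called higher at day 3 were Prmt1 (log2 fold change 0.70, adjusted p = 9.3e-07 from edgeR), Prmt5 (0.54, adjusted p = 2.1e-06) and Wdr77 (0.85, adjusted p = 4.2e-08), where 19% of all genes were called higher, and 0 members were called lower, where 17.4% were. Prmt2 (0.48), Prmt3 (0.44) and Clns1a (0.35) passed the adjusted p below the fold threshold, which makes 6 of 10, against 32.2% of all genes. Carm1 had 0.05 (interval -0.11 to 0.22) and Prmt6 0.13 (interval -0.02 to 0.27) here, and neither passed. Prmt9 (0.18, interval 0.02 to 0.35, adjusted p = 0.0533 from edgeR) and Prmt7 (0.00, interval -0.13 to 0.14) did not pass either. Beside these day differences, the summed fibroblast markers went from 2630 to 2800 FPKM at day 1 to 1450 to 1630 FPKM at day 3 in siCtrl cells, and from 2350 to 2480 to 1930 to 1980 FPKM with siPRMT1. Their part in the members' day differences was not tested.

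**Figure D5:**
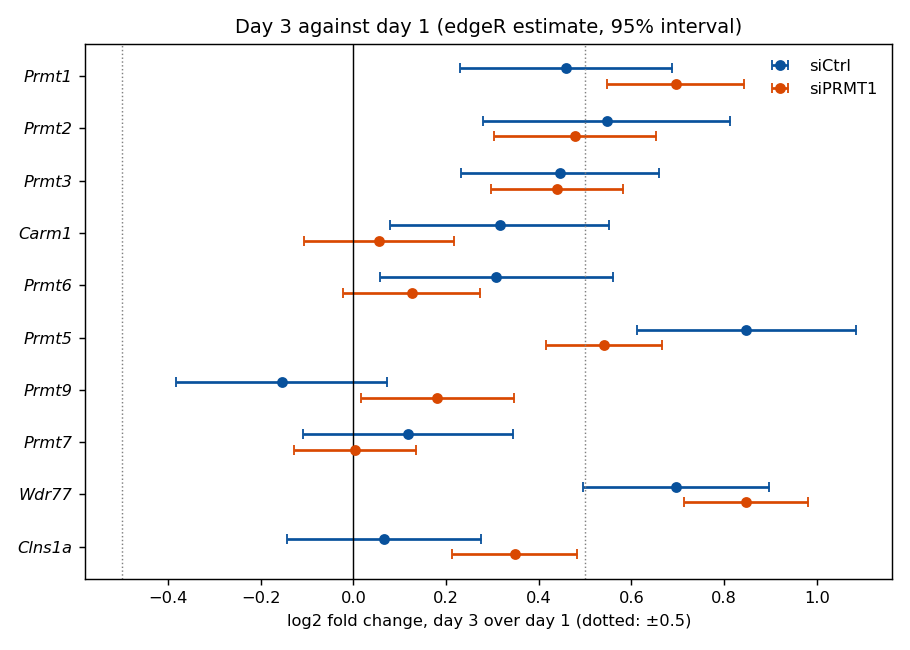
Log2 fold change of day 3 over day 1 for the 10 genes in siCtrl and in siPRMT1 cells, with 95% intervals from edgeR (3 libraries against 3). Prmt5 and Wdr77 lie beyond 0.5 in both, and the intervals of Prmt7 include 0 in both.

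Whether the siRNA difference itself changed between the days was tested over all 12 libraries. Of the 10 members, 0 passed the adjusted p, where 12.3% of all genes did, and 3 had an unadjusted p under 0.05, where 27.3% of all genes had one. They were Prmt9 (0.34, interval 0.07 to 0.61, adjusted p = 0.0897 from edgeR), Clns1a (0.29, interval 0.06 to 0.52, adjusted p = 0.101) and Prmt5 (-0.30, interval -0.56 to -0.04, adjusted p = 0.127). DESeq2 passed 0 members as well. Without siCtrl replicate 3 of day 1, Prmt5 (-0.45, adjusted p = 0.0021) and Carm1 (-0.39, adjusted p = 0.0174) passed, as did 13.2% of all genes in that direction. Without siCtrl replicate 3 of day 3, Prmt9 did (0.43, adjusted p = 0.0386), as did 6.72% of all genes as higher. With library weights (limma voom), Prmt5, Carm1, Prmt9 and Clns1a passed, against 29.2% of all genes either way.

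Genes around the family were taken from 5 lists of partners, SAM metabolism, readers and turnover of methylarginine, Sm proteins with the SMN complex, and RNA-binding proteins known as substrates. At day 1, Btg1 and Ddah1 were the called genes among the 68 tested, where 3.56% of all genes were called. Btg1, an antiproliferative protein that binds PRMT1, had 575, 534 and 536 CPM (after TMM normalization) in siCtrl and 359, 390 and 375 CPM with siPRMT1. All siPRMT1 values were lower, and its log2 fold change was -0.52 (SE 0.0629, adjusted p = 0.0043 from edgeR). It was called in 5 of the 6 fits without 1 library and in 7 of 10 alternatives. Ddah1, the enzyme that breaks down free asymmetric dimethylarginine, had 46.8, 45.5 and 55.4 CPM with siCtrl and 25.3, 20.6 and 24.2 CPM with siPRMT1. It fell by 1.05 on the log2 scale (SE 0.106, adjusted p = 0.0030) and was called in all 6 such fits.

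At day 3, 3 of the 68 genes were called, all higher, where 6.65% of all genes were called either way. Ddah2, a paralogue of Ddah1, had 1.95, 2.12 and 2.04 CPM with siCtrl and 2.88, 3.66 and 3.02 CPM with siPRMT1 (log2 fold change 0.67, SE 0.166, adjusted p = 0.0125 from edgeR). The table lists Ddah2 again under suffixed names, so its counts may be split. Snrpg and Snrpe, which encode core proteins of spliceosomal particles, had log2 fold changes of 0.58 (SE 0.115, adjusted p = 0.0030) and 0.55 (SE 0.138, adjusted p = 0.0128). Snrpg had 38.6, 54.9 and 55.6 CPM with siCtrl and 79.1, 71.9 and 69.5 CPM with siPRMT1. Snrpe had 41.6, 34.4 and 55.0 CPM with siCtrl and 75.2, 59.5 and 57.3 CPM with siPRMT1. In both genes all siPRMT1 values were above the siCtrl values, and both have processed copies elsewhere in the genome, whose reads the counting could split. Snrpg was called in all 10 alternatives and lost its call without siCtrl replicate 1 (log2 fold change 0.41). Snrpe was called in 6 of 10 alternatives (adjusted p up to 0.0867) and lost its call without siCtrl replicate 2 (0.42) or siPRMT1 replicate 1 (0.42). Ddah2 was called in 8 of 10 and lost its call without siPRMT1 replicate 2 (adjusted p = 0.0780). Snrpb, Snrpd1 and Snrpd3, the Sm proteins that carry methylarginine, had log2 fold changes of 0.05, 0.12 and -0.04 and were not called. Of the 18 genes for Sm proteins and the SMN complex, 10 had a positive log2 fold change at day 3. Snrpf, named after its value was seen, went the other way without a call (-0.27, adjusted p = 0.0507 from edgeR).

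For the lists as a whole, 0 of 14 SAM genes and 0 of 22 RNA-binding protein genes were called at either day. Their median log2 fold changes were -0.09 and 0.00 at day 1 and 0.08 and 0.06 at day 3, beside 0.01 over all genes tested at both days. The 10 members had medians of 0.07 and 0.01. Among the partners 1 of 6 tested genes was called at day 1 and 0 at day 3, and among readers and turnover 1 of 8 at each day. Of the 18 genes for Sm proteins and the SMN complex, 0 and 2 were called. Counted at any fold change, the adjusted p was passed by 4 of the 68 at day 1 and by 7 at day 3, where 7.6% and 16.5% of all genes did. Of these, 2 at day 1 (Ahcyl2 at -0.34 and Aven at -0.34) and 4 at day 3 were below the fold threshold. The 4 were Gemin8 (0.46), Gemin4 (-0.23), Ahcy, which clears the S-adenosylhomocysteine left by methylation (-0.38, adjusted p = 0.0023 from edgeR), and Jmjd6 (-0.41, adjusted p = 5.5e-04), and these 6 genes were named after their values were seen. In the interaction of siRNA and day, 4 of the 68 genes were called higher and 2 lower, where 8.24% of all genes were called either way.

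The genes with the course most like that of Prmt1 over the 12 libraries were sought among the 9324 genes whose mean reached 10 CPM, by the root mean square difference of log2 CPM after each gene's mean was taken off. They were Bloc1s4 (0.216), Adi1 (0.241), Csad (0.273), Serinc5 (0.276) and Acsf2 (0.283). Of the other 9 members, the nearest to Prmt1 were Prmt5 at rank 919 and Wdr77 at rank 925. Txn2 (0.0486) and Ogdh (0.0488) were most like Prmt5. Prmt2 stood at rank 349 and Wdr77 at rank 730 (0.172) in likeness to Prmt5, and Clns1a at rank 2774 (0.316). The points share libraries and depth, so these likenesses are descriptions of the 12 libraries.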

How the data were processed

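mRNA libraries of 3T3-L1 cells (12) were sequenced by the authors. Per the labels, the processing named cutadapt 1.11, HISAT2 2.1.0, RSEM 1.2.6 and the build mm10 (GRCm38), and the counting tool, its strand setting and its treatment of reads with several positions are not given in the sources used here. The authors deposited whole-number counts per gene without normalization, and FPKM values made by the authors from them. FPKM recomputed from the counts, the listed lengths and the library totals differed from the deposited ones by at most 0.005. Groups came from the sample titles, and no library was left out. The 10 members and the gene lists were chosen with earlier results of these data known, so they are no independent test.

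Here the counts were compared with edgeR 4.0.16 (R 4.3.3): TMM normalization, filterByExpr and the quasi-likelihood test, in 5 comparisons, with Benjamini-Hochberg adjustment over all genes tested. SE was taken as the size of the log2 fold change over the root of the F statistic, and intervals are 95% intervals of that fit. All 10 members passed the filter in each comparison. Calls needed an adjusted p under 0.05 with a log2 fold change beyond 0.5 either way. CPM are after TMM. Alternatives were DESeq2 1.42.0, RLE, library totals only, no filter, a minimum of 10 counts per library, a block for the replicate number, 1 model over all 12 libraries, limma 3.58.1 (voom with library weights, and a trend on log2(FPKM + 1) or log2(FPKM + 0.1) for genes whose mean reached 1 FPKM), no fold threshold, and each library left out in turn. Of the 5 pathway lists, the called genes are named, at most 3 with the smallest p per direction and day, and of the marker and interferon lists counts and sums are given, which cover fibroblasts, adipocytes, macrophages, endothelium and skeletal muscle. Macrophage markers summed to at most 2.40 FPKM, endothelial markers to at most 0.88 FPKM and muscle markers to at most 0.05 FPKM. An exact permutation test of 3 against 3 libraries cannot go below 0.1, so none is given. The methods were tested on simulated data with 200 changed genes, each set to a log2 change of 1 in size. In these data, edgeR recovered 164 of the 200 in the day 1 knockdown comparison, with 14 false calls. In the interaction of siRNA and day, edgeR recovered 137, with 10 false calls. DESeq2 recovered 159 and 141, with 16 and 15 false calls, and limma voom 161 and 136, with 14 and 9. Counts of replicates were compared, and no libraries agreed within sampling noise. Gene positions and exon overlaps are those of the table and RefSeq on GRCm38, and siRNA sites were searched in GENCODE vM21 transcripts. One gene that the rule for likeness to Prmt5 would name is not reported here.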

Additional observations from a re-analysis of the deposited data

Results flagged for a closer look

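In 6 of the 68 tested genes of the pathway lists, the siRNA difference itself was called as different between the days by the test of that difference over all 12 libraries, where 8.24% of all genes were called, and the difference was positive in 4 and negative in 2. Another 8 passed the adjusted p below the fold threshold. That makes 14 of the 68 at any fold change, where 12.3% of all genes passed. The day 3 minus day 1 difference in log2 fold change was 0.55 for Btg1 (SE 0.0913, edgeR's adjusted p = 0.0015), which had 548 ± 23.2 CPM with siCtrl and 375 ± 15.3 CPM with siPRMT1 at day 1, and 330 ± 4.87 against 332 ± 25.1 CPM at day 3 (SD, n = 3). For Ddah1 it was 0.90 (SE 0.128, adjusted p = 4.7e-04 from edgeR), with 49.2 ± 5.38 and 23.3 ± 2.46 CPM at day 1 and 101, 103 and 96.5 CPM against 91.7, 88.5 and 84.9 CPM in the replicates at day 3. For Snrpg it was 0.88 (SE 0.170, adjusted p = 0.0040 from edgeR) and for Snrpe 0.86 (SE 0.205, adjusted p = 0.0135). Both Sm genes had log2 fold changes of -0.29 at day 1, which did not pass the test, and both were called higher at day 3. The Ddah1, Snrpg and Snrpe differences were called in all 12 fits without 1 library and in all 9 alternatives, and the Btg1 difference in 11 of 12 and 6 of 9. For Jmjd6, a lysyl hydroxylase also reported as an arginine demethylase, the difference was -0.62 (SE 0.103, adjusted p = 0.0016 from edgeR). Its level was 67.6 ± 6.43 CPM with siCtrl and 77.7 ± 3.28 CPM with siPRMT1 at day 1, and 158 ± 4.88 against 119 ± 1.78 CPM at day 3 (SD, n = 3). It was called in all 12 fits and all 9 alternatives. For Taf15, an RNA-binding protein, the difference was -0.50 (SE 0.137, adjusted p = 0.0267 from edgeR), with 147 ± 21.8 and 198 ± 14.5 CPM at day 1 and 115 ± 8.19 and 109 ± 1.47 CPM at day 3. Its call held in 6 of 12 fits and 7 of 9 alternatives, and was lost without siCtrl or siPRMT1 replicate 3 of day 1 or without replicate 1 or 2 of either group at day 3 (adjusted p up to 0.0815). Jmjd6 and Taf15 were named after their values were seen. No member of the family met a flag of this kind.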

How the results depend on the processing

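Prmt1 was called lower at both days under every alternative and in every fit without 1 library. Without the fold threshold, 2 members passed as lower at day 3, 7 as higher over time in siCtrl and 6 in siPRMT1 cells. In siCtrl cells over time, 5 were called higher with library totals only and 5 with limma on log2(FPKM + 0.1), against 3; without 1 library the number ran from 2 to 3 there and from 3 to 4 in siPRMT1 cells, and in the knockdown comparisons it stayed at 1 lower. Signs near 0 turned, and the cause was not tested. At day 3 Carm1 was 0.0021 without the filter and 0.0392 with voom, Prmt7 -0.0059 with 12 libraries in 1 model and -0.0038 with voom, and Btg1 -0.0296 with voom. Over time in siPRMT1 cells Prmt7 was -0.0044 with DESeq2 and -0.0187 without the filter. The Prmt3 interaction was 0.0435 without the filter and 5.2e-04 with the replicate block. Over the fits without 1 library, these signs also turned: Prmt2 ran from -0.0399 to 0.162 and Ddah2 from -0.0459 to 0.324 at day 1, and at day 3 Prmt2 from -0.0601 to 0.0119, Carm1 from -0.0703 to 0.0698, Prmt6 from -0.0565 to 0.0998, Prmt7 from -0.0480 to 0.0638, Wdr77 from -0.0236 to 0.0989 and Btg1 from -0.0508 to 0.0511. Over time, Clns1a in siCtrl cells ran from -0.0427 to 0.109, and in siPRMT1 cells Carm1 from -0.0058 to 0.140 and Prmt7 from -0.0453 to 0.0278. The interaction ran from -0.210 to 0.0230 for Prmt2 and from -0.0578 to 0.0568 for Prmt3. Whether replicate numbers pair the samples was not settled by these values. Same-numbered siCtrl and siPRMT1 libraries correlated in their deviations from -0.152 to 0.467 at day 1 and from -0.152 to 0.489 at day 3. Differently numbered ones ran from -0.542 to 0.461 and from -0.63 to 0.577. With the number as a block, the SE of every member at day 3 was smaller, for Prmt1 0.0657 against 0.0883 without it. Prmt1 then had -0.88 and Prmt5 -0.24 (adjusted p = 0.0119 from edgeR) at day 3. Clns1a passed the adjusted p at day 3 with the block (0.19, adjusted p = 0.0433 from edgeR) below the fold threshold.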
